A study of Homo sapiens with 12 samples.

Results

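The renal lineage transcription factors described here are 7 protein-coding genes, PAX8, PAX2, HNF4A, LHX1, EMX2, MECOM and ZNF395, taken by name from the 60663 genes of the count table. They were measured in RCC4, an established line of clear cell renal cell carcinoma, the kidney cancer in which the tumour suppressor VHL is usually lost. RNA was sequenced after ribosomal RNA depletion in 4 groups of 3 libraries each. VHL- cells are labelled as having lost VHL, and VHL+ cells as the same line with VHL put back; each was given either the solvent DMSO or 5 µM JQ1, an inhibitor of BET bromodomain proteins that the labels call a MYC inhibitor. All groups were grown in high glucose DMEM with serum and geneticin. The labels describe neither the VHL construct, nor whether each line is 1 clone, nor the time of treatment.

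PAX2 and PAX8 are paired-box factors that set up the kidney lineage from the intermediate mesoderm onward, together with the LIM-homeobox factor LHX1, and the homeobox factor EMX2 acts in the early ureteric bud and metanephros. HNF4A is a nuclear receptor that drives the differentiated programme of the proximal tubule, the presumed origin of clear cell carcinoma. MECOM is a zinc finger factor with a role in the patterning of the distal nephron, and ZNF395 is a zinc finger factor that is highly expressed in clear cell carcinoma and is induced by hypoxia. VHL is the ubiquitin ligase subunit that removes hypoxia-inducible factors, so cells without it hold these factors at normal oxygen.

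The libraries held 15452949 to 32502310 counts in genes, so that 1 read was worth 0.0296 to 0.0596 CPM (counts per fixed library total, the usual unit, on TMM-scaled library sizes). VHL itself stood at 70.3 ± 7.62 CPM (SD, n = 3) in VHL+ DMSO, 212 ± 14.0 in VHL+ JQ1, 26.4 ± 1.64 in VHL- DMSO and 32.7 ± 2.39 in VHL- JQ1, so it was lower in the libraries labelled VHL-, where its RNA was still counted. The genes induced by hypoxia moved with the labels too, with 22 of 25 higher in VHL- than in VHL+ cells under DMSO and 0 lower, where 14.8% of all genes tested were higher and 15.9% lower. HEXIM1, a gene that rises when BET proteins are inhibited, rose 2.39-fold with JQ1 in VHL+ and 2.69-fold in VHL- cells, while MYC fell with JQ1 in VHL- cells (log2 fold change -1.10, adjusted p = 0.000869) and was not called in VHL+ cells (-0.08, adjusted p = 0.795). Of 14 markers of tubular epithelium and carcinoma 13 passed the filter on low counts, among them the keratins KRT8 (231 to 468 CPM as group means) and KRT18 (74.9 to 148 CPM). Of 6 markers each, 1 endothelial and 1 leukocyte marker passed, and the highest values in any library were 9.89 CPM for ESAM and 4.36 CPM for CSF1R. Of 6 fibroblast and mesangium markers 3 passed, with at most 7.86 CPM (PDGFRB), of 4 podocyte markers 2, with up to 136 CPM for PODXL, and of 6 distal nephron markers 1, with at most 1.94 CPM (SLC12A3). PDGFRB was called lower with JQ1 in both lines and higher in VHL- cells under both treatments; its part in any result on the factors was not tested.

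The starts of 5 of the 7 genes were found in RefSeq (build GRCh38.p14) as windows of 250 bases before to 50 after the start. Shown are 4 windows of genes whose levels differed between groups: PAX8, which was higher under JQ1, and PAX2, HNF4A and EMX2, which were lower in VHL- cells under DMSO. MECOM also differed between groups, but its windows are not shown. PAX2 and HNF4A each have 2 windows in the table, of which the upstream is given for PAX2 and the downstream for HNF4A, chosen after the motifs were counted. Capitals mark CCAAT (the CCAAT box), TAATTA (a homeodomain core) and ACGTG or GCGTG (cores bound by hypoxia-inducible factors) on either strand.
PAX8, chr2:113278872-113279171, minus strand: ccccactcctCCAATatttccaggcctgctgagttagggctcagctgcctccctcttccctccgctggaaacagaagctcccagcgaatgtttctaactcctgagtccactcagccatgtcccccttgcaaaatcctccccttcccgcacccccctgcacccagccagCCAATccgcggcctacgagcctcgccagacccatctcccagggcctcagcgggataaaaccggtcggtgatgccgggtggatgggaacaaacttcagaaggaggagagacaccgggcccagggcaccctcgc
PAX2, chr10:100735146-100735445, plus strand: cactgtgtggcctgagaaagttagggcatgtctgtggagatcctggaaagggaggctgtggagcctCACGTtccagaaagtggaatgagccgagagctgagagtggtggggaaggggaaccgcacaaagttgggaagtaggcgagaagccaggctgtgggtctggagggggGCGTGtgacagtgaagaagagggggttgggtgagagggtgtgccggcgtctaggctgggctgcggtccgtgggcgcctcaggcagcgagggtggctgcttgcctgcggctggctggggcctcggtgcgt
HNF4A, chr20:44400989-44401288, plus strand: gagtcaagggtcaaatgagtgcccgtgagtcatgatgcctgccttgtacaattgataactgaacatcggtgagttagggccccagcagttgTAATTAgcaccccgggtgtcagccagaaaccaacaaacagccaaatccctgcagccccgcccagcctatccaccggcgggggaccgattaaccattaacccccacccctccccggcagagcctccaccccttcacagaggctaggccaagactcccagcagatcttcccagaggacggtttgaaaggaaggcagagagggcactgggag
EMX2, chr10:117542496-117542795, plus strand: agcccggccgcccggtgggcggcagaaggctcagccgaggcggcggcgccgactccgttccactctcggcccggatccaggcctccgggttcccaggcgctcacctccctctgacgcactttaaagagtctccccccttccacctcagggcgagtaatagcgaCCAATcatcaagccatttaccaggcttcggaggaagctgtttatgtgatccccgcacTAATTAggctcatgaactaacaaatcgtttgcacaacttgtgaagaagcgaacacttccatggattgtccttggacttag
The PAX8 window held 2 CCAAT boxes, a motif found in 34.6% of the 35116 windows in the table. The HNF4A window, at the downstream of its starts, held TAATTA 1 time, as did 4.84% of all windows at least once; the other HNF4A window held 0 TAATTA and 1 CCAAT. The EMX2 window held 1 CCAAT box and 1 TAATTA. The PAX2 window held 1 ACGTG (21.4% of all windows) and 1 GCGTG (36.5%), and the other PAX2 window held 0 of either. No marked copies overlapped in these windows, although ACGTG and its own reverse complement can share bases. Of the MECOM windows that are not shown, the one from 169146490 held 1 ACGTG and the one from 169147422 held 1 CCAAT. The MECOM window from 169663663 held 0 of the motifs. All of these are matches of letters and were not tested as binding sites.

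None of the 7 genes met the rule for a gene that is not expressed (under 0.1 CPM in every library), and all 7 passed the filter. PAX8, PAX2, MECOM and ZNF395 passed through every group and LHX1 through both DMSO groups. EMX2 reached the filter's minimum of 0.370 CPM in the VHL+ groups alone, and HNF4A in VHL+ DMSO alone, so for these genes passing the filter and being higher in those groups are not separate facts. Per length, PAX8 was the most abundant of the 7 in every group, with 37.0 ± 10.2 RPKM (CPM per kilobase of exon; SD, n = 3) in VHL+ DMSO and 40.9 ± 7.86 in VHL- DMSO. ZNF395 followed with 8.89 ± 1.16 RPKM in VHL+ DMSO, and in VHL- DMSO its 32.9 ± 1.20 overlapped the range of PAX8. PAX2 was the third in each group, at 3.62 ± 0.336 RPKM in VHL+ DMSO and 2.09 ± 0.731 in VHL- DMSO. The other 4 stayed under 1 RPKM. In VHL+ DMSO their order was EMX2 (0.440) and LHX1 (0.391), which overlapped, then MECOM (0.107) and HNF4A (0.0793), which also overlapped. In VHL- DMSO it was LHX1 (0.407), MECOM (0.231), EMX2 (0.0280) and HNF4A (0.0163), and only the last pair overlapped. Under JQ1, EMX2 (0.397 RPKM) came next after PAX2 in VHL+ cells and MECOM (0.104) in VHL- cells, where MECOM, EMX2 and LHX1 overlapped their neighbours.

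**Figure D1:**
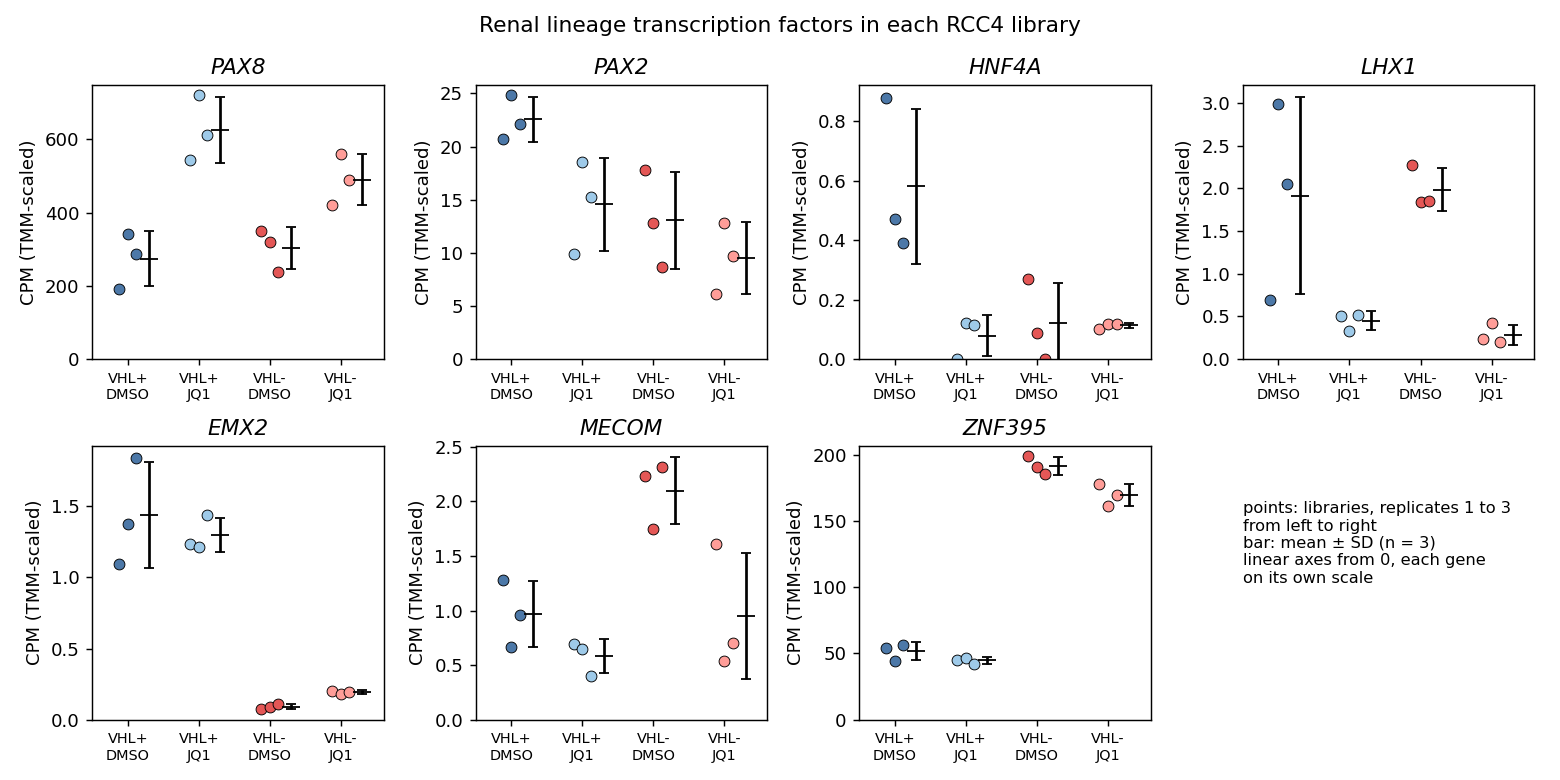
CPM on TMM-scaled library sizes of the 7 factors in each library, with 1 panel per gene, linear axes from 0 on separate scales, points for libraries and bars for mean ± SD (n = 3). PAX8 is higher under JQ1 in both lines (626 against 274 and 490 against 303 CPM as group means), LHX1 is lower under JQ1 in both, EMX2 is near 0 in VHL- cells, and ZNF395 is high in VHL- cells (192 and 170 CPM).

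PAX8 (ENSG00000125618, chromosome 2, 113215997 to 113278950, minus strand, GRCh38) was the factor whose transcript increased under JQ1. It stood at 193, 342 and 287 CPM in the VHL+ DMSO libraries and at 545, 722 and 610 CPM in VHL+ JQ1. VHL- libraries stood at 350, 321 and 238 CPM under DMSO and at 421, 560 and 489 CPM under JQ1. In such bulk RNA fewer cells expressing a gene and less of its RNA per cell cannot be told apart. Every JQ1 library of a line was above every DMSO library of that line. PAX8 rose 2.28-fold in VHL+ cells (log2 fold change 1.19, SE 0.204, edgeR adjusted p = 0.000383) and 1.62-fold in VHL- cells (0.69, SE 0.202, adjusted p = 0.0155). The effect in VHL- minus that in VHL+ was -0.50 (95% interval -1.10 to 0.11, adjusted p = 0.307), so no difference between the lines was shown. Between the lines under DMSO the libraries overlapped, with a log2 difference of 0.14 (95% interval -0.28 to 0.57, adjusted p = 0.636). The call in VHL- cells was lost without replicate 3 of VHL- DMSO (adjusted p = 0.0941) or replicate 2 of VHL- JQ1 (0.0545). In the authors' deposited tables the log2 fold changes of PAX8 were 1.19 in VHL+ and 0.66 in VHL- cells, with adjusted p-values of 4.37e-07 and 0.0101.

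The antisense RNA PAX8-AS1 runs along PAX8 on the opposite strand and 9.26% of the exon bases of PAX8 lie in its exons; since the strand setting of the counting is not given, reads in that stretch cannot be told apart. PAX8-AS1 rose 2.16-fold with JQ1 in VHL+ cells, from 203, 254 and 257 to 420, 619 and 503 CPM (adjusted p = 0.00107). In VHL- cells it rose 2.14-fold, from 290, 385 and 282 to 469, 905 and 676 CPM (adjusted p = 0.00112). The ratio of PAX8 counts to PAX8-AS1 counts lay between 0.948 and 1.35 in VHL+ cells and between 0.619 and 1.21 in VHL- cells.

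PAX2 (ENSG00000075891, chromosome 10, 100735603 to 100829941, plus strand) is the paralog of PAX8, and JQ1 had no called effect on it in the fit with the filter. Its libraries stood at 20.7, 24.9 and 22.1 CPM in VHL+ DMSO and at 9.90, 18.5 and 15.3 in VHL+ JQ1. In VHL- cells they stood at 17.8, 12.8 and 8.65 CPM under DMSO and at 6.08, 12.8 and 9.71 under JQ1. The VHL+ DMSO libraries were thus the highest of all 12, and the other 3 groups overlapped each other. PAX2 was 1.73-fold lower in VHL- than in VHL+ cells under DMSO (log2 fold change -0.79, SE 0.272, adjusted p = 0.0372). Under JQ1 the same difference was -0.62 (95% interval -1.22 to -0.03) and did not pass after adjustment (adjusted p = 0.0871). The JQ1 effects were -0.63 in VHL+ (SE 0.272, adjusted p = 0.0879) and -0.47 in VHL- cells (SE 0.279, adjusted p = 0.213), neither past the threshold. The call between the lines was lost without replicate 2 or 3 of VHL+ DMSO or replicate 2 or 3 of VHL- DMSO, with adjusted p-values from 0.0730 to 0.164. Other settings added calls. With no filter PAX2 was called lower with JQ1 in both lines (adjusted p = 0.0283 in VHL-) and between the lines under JQ1 (0.0031). The JQ1 effect in VHL+ cells was also called with total counts alone, and the difference between the lines under JQ1 without replicate 1 of VHL+ JQ1 (0.0311) or replicate 2 of VHL- JQ1 (0.0318).

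The values of both PAX genes can also be set side by side within a library, which restates the changes above. The ratio of PAX8 counts to PAX2 counts, in which library size cancels, was 9.28, 13.8 and 13.0 in VHL+ DMSO and 55.1, 39.0 and 40.0 in VHL+ JQ1. In VHL- cells it was 19.7, 25.0 and 27.5 under DMSO and 69.3, 43.7 and 50.4 under JQ1. No library of VHL+ DMSO reached the VHL- DMSO range, and no DMSO library reached the JQ1 range of either line. On the geometric mean the ratio was 3.73-fold higher with JQ1 in VHL+ and 2.24-fold in VHL- cells, and 2.01-fold higher in VHL- than in VHL+ cells under DMSO. In an exact two-sided permutation test of each difference p was 0.1, the smallest that 3 libraries against 3 can give, and 0.133 after Benjamini-Hochberg adjustment over 4 comparisons. Under JQ1 the ratio was 1.21-fold higher in VHL- cells, with overlapping libraries (exact permutation p = 0.3, adjusted 0.3).

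**Figure D2:**
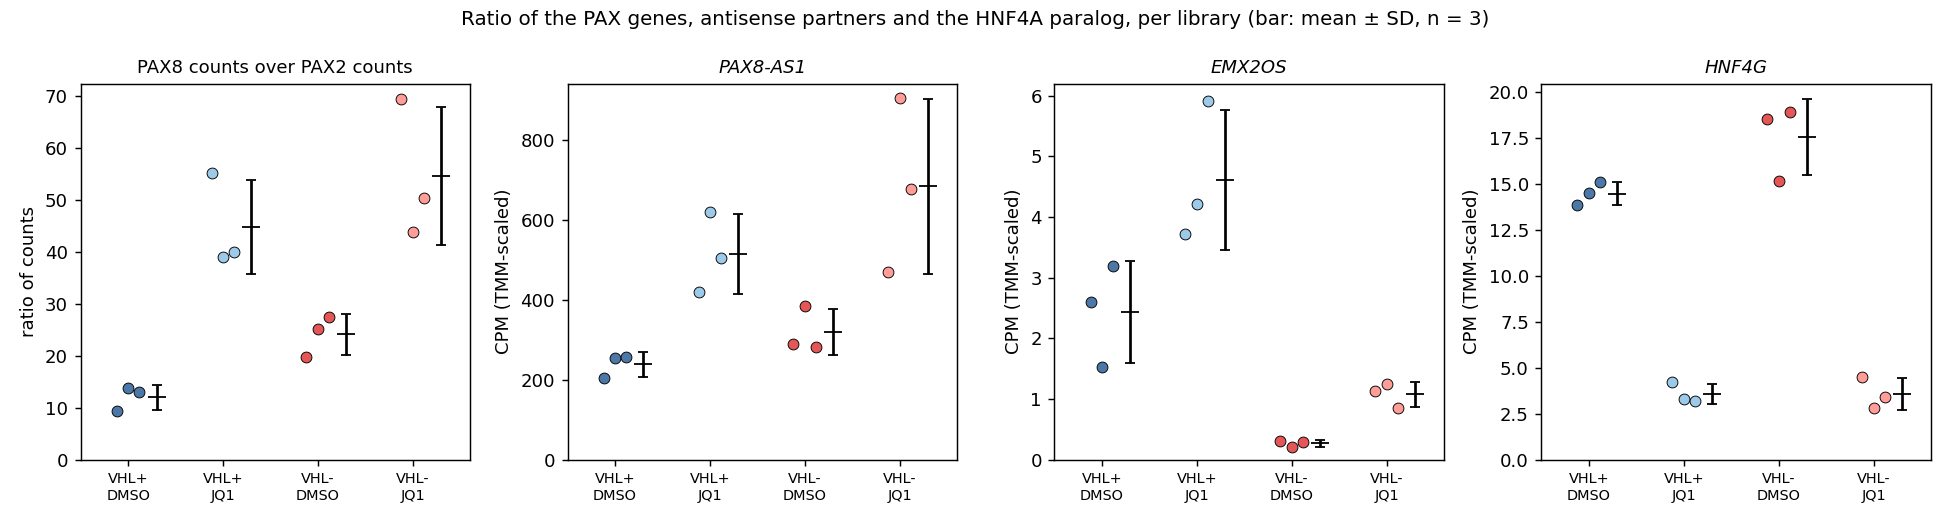
Per library, the ratio of PAX8 counts to PAX2 counts and the CPM of PAX8-AS1, EMX2OS and HNF4G, with points for libraries and bars for mean ± SD (n = 3). The PAX8 to PAX2 ratio is at most 27.5 under DMSO and at least 39.0 under JQ1, PAX8-AS1 and EMX2OS are higher under JQ1, and HNF4G is lower under JQ1 (3.57 and 3.58 against 14.5 and 17.5 CPM).

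LHX1 (ENSG00000273706, chromosome 17, 36936785 to 36944612, plus strand) was low and fell with JQ1 in both lines. Its libraries held 19, 76 and 68 counts in VHL+ DMSO (0.694, 2.99 and 2.05 CPM) and 14, 8 and 9 counts in VHL+ JQ1 (0.509, 0.324 and 0.517 CPM). In VHL- cells they held 59, 62 and 51 counts under DMSO (2.27, 1.83 and 1.85 CPM) and 7, 7 and 5 under JQ1 (0.239, 0.417 and 0.194 CPM). Replicate 1 of VHL+ DMSO was low for its group but still above every JQ1 library. LHX1 was 4.23-fold lower with JQ1 in VHL+ (log2 fold change -2.08, SE 0.452, adjusted p = 0.00242) and 7.25-fold lower in VHL- cells (-2.86, SE 0.487, adjusted p = 0.000342). Both calls held in all 20 alternatives run. The lines did not differ by the test under either treatment, and the log2 difference under DMSO was 0.06 (95% interval -0.75 to 0.86). Its divergent transcript LHX1-DT fell in VHL- cells, from 1.11 ± 0.304 to 0.398 ± 0.131 CPM (log2 fold change -1.43, adjusted p = 0.0094), and in VHL+ cells went from 1.52 ± 0.334 to 0.791 ± 0.310 CPM (-0.89, adjusted p = 0.0600). Of the exon bases of LHX1, 7.52% are shared with the transcript AC243773.1.

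HNF4A (ENSG00000101076, chromosome 20, 44355700 to 44434596, plus strand), the proximal tubule regulator, was found only in traces. Its libraries held 24, 12 and 13 counts in VHL+ DMSO (0.877, 0.472 and 0.391 CPM) and 0, 3 and 2 counts in VHL+ JQ1. In VHL- cells they held 7, 3 and 0 counts under DMSO and 3, 2 and 3 under JQ1. Only the VHL+ DMSO libraries, and replicate 1 of VHL- DMSO, lay above the floor of 3 counts. HNF4A was lower in VHL+ JQ1 than in VHL+ DMSO (fitted log2 fold change -2.91, 95% interval -4.59 to -1.22, adjusted p = 0.0109) and lower in VHL- DMSO than in VHL+ DMSO (-2.27, -3.75 to -0.79, adjusted p = 0.0207). Both calls were made too with no filter (adjusted p = 0.000767 and 0.0043). With the lower groups at or near the floor the size of these differences is not well set: with 1 library left out the first ran from -3.51 to -2.22 (lowest without replicate 2 of VHL+ JQ1) and the second from -3.45 to -1.72 (lowest without replicate 1 of VHL- DMSO, highest without its replicate 3). With JQ1 in VHL- cells the value was -0.05 (95% interval -1.99 to 1.89), an interval too wide to show a change at this depth. Between the lines under JQ1 no fold is read, since both groups are at the floor. The first call was lost without replicate 1 of VHL+ JQ1 (adjusted p = 0.0635), and the second without replicate 1 of VHL+ DMSO or replicate 2 or 3 of VHL- DMSO (0.0944, 0.0860 and 0.0812) and in DESeq2.

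Its paralog HNF4G, the other HNF4 receptor, was more abundant per length, with 3.01 RPKM in VHL+ DMSO against 0.0793 for HNF4A. In CPM it stood at 13.8, 14.5 and 15.1 CPM in VHL+ DMSO and 4.22, 3.28 and 3.21 CPM in VHL+ JQ1. VHL- libraries stood at 18.5, 15.1 and 18.9 CPM under DMSO and 4.51, 2.80 and 3.42 CPM under JQ1. The DMSO and JQ1 libraries of each line lay far apart. HNF4G fell 4.02-fold with JQ1 in VHL+ (adjusted p = 1.5e-06) and 4.83-fold in VHL- cells (adjusted p = 2.81e-07), and did not differ by the test between the lines.

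EMX2 (ENSG00000170370, chromosome 10, 117542444 to 117549546, plus strand) was the factor that divided the lines most by fold. Its libraries held 30, 35 and 61 counts in VHL+ DMSO (1.10, 1.38 and 1.84 CPM) and 34, 30 and 25 in VHL+ JQ1 (1.24, 1.22 and 1.43 CPM). VHL- libraries held 2, 3 and 3 counts under DMSO and 6, 3 and 5 under JQ1, at or just above the floor. No VHL- library came near a VHL+ library. EMX2 was lower in VHL- cells by a log2 fold change of -3.91 under DMSO (95% interval -4.72 to -3.10, adjusted p = 8.18e-07) and of -2.70 under JQ1 (-3.47 to -1.93, adjusted p = 2.51e-05), and both calls held in all 20 alternatives. JQ1 had no called effect, with -0.16 in VHL+ (95% interval -0.75 to 0.43) and 1.05 in VHL- cells (-0.03 to 2.12, adjusted p = 0.168).

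The antisense EMX2OS, whose exons hold 7.82% of the exon bases of EMX2, divided the lines likewise. It stood at 2.44 ± 0.839 CPM in VHL+ DMSO, 4.61 ± 1.15 in VHL+ JQ1, 0.268 ± 0.0539 in VHL- DMSO and 1.08 ± 0.203 in VHL- JQ1. EMX2OS was 9.13-fold lower in VHL- than in VHL+ cells under DMSO (adjusted p = 3.65e-06) and 4.28-fold lower under JQ1 (adjusted p = 5.08e-05). It also passed the test for JQ1, rising 1.86-fold in VHL+ (adjusted p = 0.0198) and 3.98-fold in VHL- cells (adjusted p = 0.000966). Its mean in VHL- DMSO, 0.268 CPM, was under the filter's minimum of 0.370 CPM, so folds against that group are not well set in size. With no strand setting given, reads in the exon stretch shared with EMX2 cannot be told apart. Whether EMX2OS moved differently from EMX2 was not tested. EMX1, the paralog of EMX2 on chromosome 2, showed 6.52 ± 1.72 CPM in VHL+ DMSO and 0.542 ± 0.219 in VHL- DMSO, 11.9-fold lower (adjusted p = 2.58e-07), and was 6.06-fold lower under JQ1 (adjusted p = 1.08e-05).

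MECOM (ENSG00000085276, chromosome 3, 169083499 to 169663618, minus strand) was higher in VHL- cells under DMSO and fell there with JQ1. Its libraries stood at 1.28, 0.669 and 0.963 CPM in VHL+ DMSO and 0.691, 0.648 and 0.402 in VHL+ JQ1. In VHL- cells they stood at 2.24, 1.75 and 2.32 CPM under DMSO and 1.61, 0.536 and 0.699 under JQ1. Replicate 1 of VHL- JQ1, with 47 counts against 9 and 18, lay just below the DMSO range. MECOM was 2.15-fold higher in VHL- than in VHL+ cells under DMSO (log2 fold change 1.10, SE 0.357, adjusted p = 0.0274) and 2.12-fold lower with JQ1 in VHL- cells (-1.09, SE 0.362, adjusted p = 0.0308). The value with JQ1 in VHL+ cells was -0.71 (95% interval -1.57 to 0.15), and the effects did not differ by the test (-0.38, 95% interval -1.55 to 0.79). The difference between the lines was lost without replicate 2 or 3 of VHL+ DMSO or replicate 1 or 3 of VHL- DMSO (adjusted p from 0.0649 to 0.0878), and the JQ1 call without replicate 1 or 3 of VHL- DMSO or replicate 2 or 3 of VHL- JQ1 (0.0730 to 0.142). The JQ1 value ran from -1.74, without replicate 1 of VHL- JQ1, to -0.83, without its replicate 2.

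ZNF395 (ENSG00000186918, chromosome 8, 28345585 to 28402701, minus strand) set the lines apart at a high level. It stood at 54.4, 44.0 and 56.7 CPM in VHL+ DMSO and 45.2, 46.9 and 42.0 in VHL+ JQ1. VHL- libraries stood at 199, 191 and 185 CPM under DMSO and 178, 161 and 169 under JQ1. The lowest VHL- library, at 161 CPM, was far above the highest VHL+ library, at 56.7 CPM. ZNF395 was 3.70-fold higher in VHL- cells under DMSO (log2 fold change 1.89, SE 0.125, adjusted p = 6.96e-09) and 3.79-fold higher under JQ1 (1.92, SE 0.126, adjusted p = 6.61e-09), in all 20 alternatives. JQ1 gave -0.21 in VHL+ (95% interval -0.47 to 0.05) and -0.18 in VHL- cells (-0.43 to 0.08), neither called. FBXO16 lies on the same strand and shares 34.9% of the exon bases of ZNF395. FBXO16 was lower in VHL- cells, at 0.770 ± 0.118 against 2.30 ± 0.597 CPM under DMSO (log2 fold change -1.57, adjusted p = 0.00127).

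**Figure D3:**
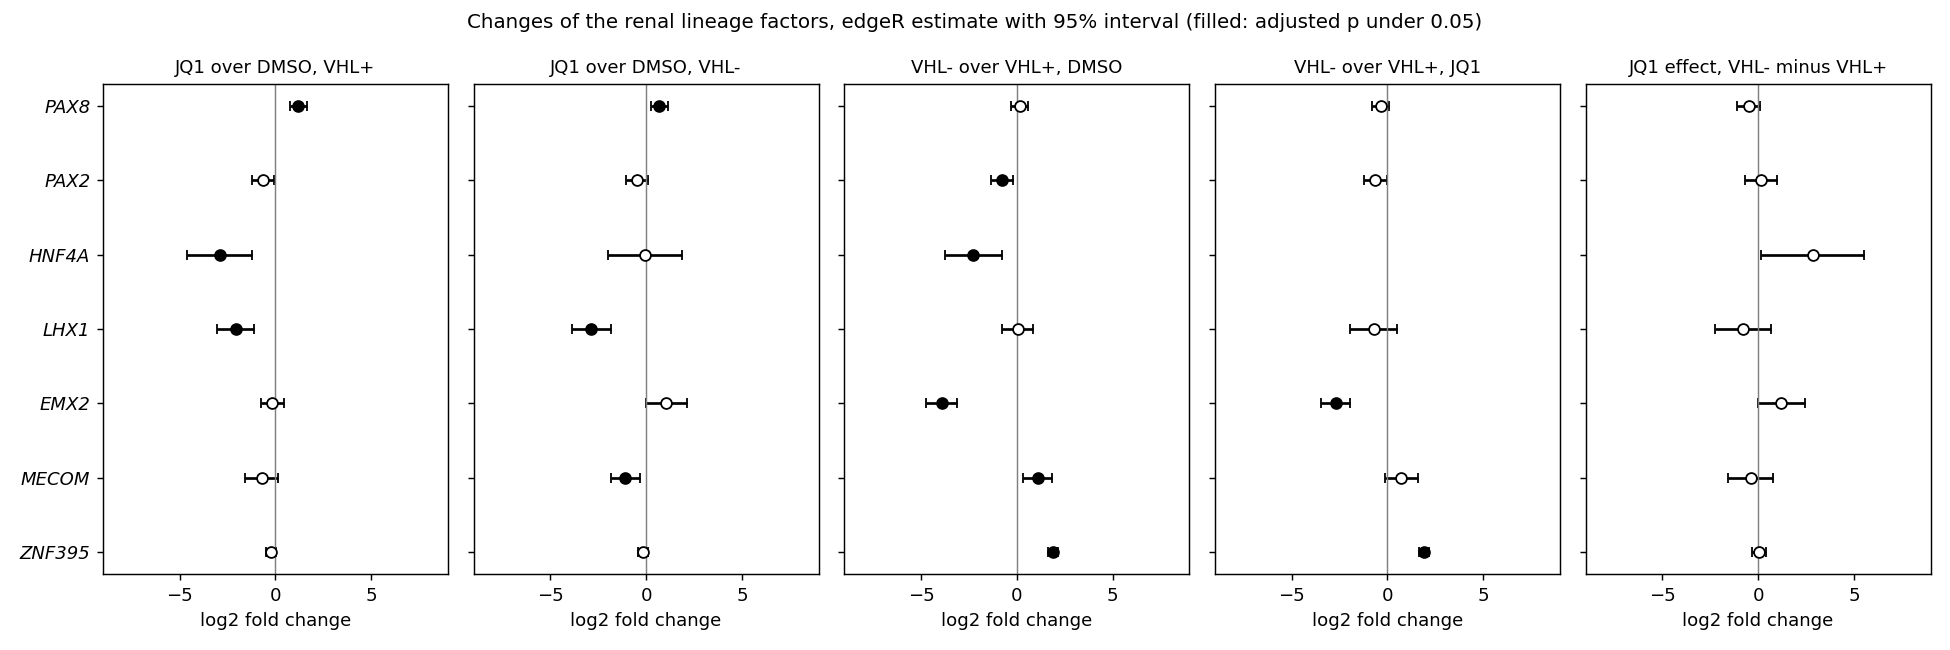
Log2 fold changes of the 7 factors from the edgeR fit in 5 comparisons, with 95% intervals; filled points passed at an adjusted p under 0.05. HNF4A is left out between the lines under JQ1, where both groups are at the floor. PAX8 (1.19 and 0.69) and LHX1 (-2.08 and -2.86) are called with JQ1 in both lines, EMX2 (-3.91 and -2.70) and ZNF395 (1.89 and 1.92) between the lines under both treatments, and no factor is called in the difference between the JQ1 effects.

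Counted together, 3 of the 7 factors changed with JQ1 in VHL+ cells (PAX8 up, HNF4A and LHX1 down), where 31.8% of the 20714 genes tested were called, 15.3% up and 16.5% down. In VHL- cells 3 of 7 changed (PAX8 up, LHX1 and MECOM down) against 32.1% of all genes, 14.6% up and 17.5% down. Between the lines under DMSO 5 of 7 differed (MECOM and ZNF395 higher in VHL-, PAX2, HNF4A and EMX2 lower) against 30.7% of all genes, 14.8% higher and 15.9% lower. Under JQ1 2 of 7 differed (ZNF395 higher, EMX2 lower) against 40.9%, 19.7% higher and 21.2% lower. HNF4A and EMX2, tested only through VHL+ groups, are 2 of the 5 under DMSO, where 5 of 7 were called with no filter as well. HNF4A, which passed through VHL+ DMSO alone, is also 1 of the 3 called with JQ1 in VHL+ cells. EMX2 is likewise 1 of the 2 called between the lines under JQ1. For these calls too, passing the filter and being higher in that group are not separate facts. With single libraries left out the count between the lines under DMSO ran from 2 to 5, and with JQ1 in VHL- cells from 1 to 3, by the libraries named above for each gene. The difference between both JQ1 effects was called for 0 of 7 in edgeR, against 1.21% of all genes (0.497% higher and 0.71% lower in VHL-). DESeq2 gave HNF4A and EMX2 no adjusted p for this difference and called none of the other factors. In edgeR 1 factor, HNF4A, had an unadjusted p under 0.05 for this difference, as did 4657 of the 20714 genes tested. HNF4A was at or near the floor in every group but VHL+ DMSO, so no difference is read from it. The libraries of both groups did not overlap for 4 factors with JQ1 in VHL+ cells (48.2% of all genes) and 5 with JQ1 in VHL- cells (43.1%). Between the lines this held for 5 factors under DMSO (42.7%) and 2 under JQ1 (52.9%). The median log2 fold change of the 7 was -0.63 with JQ1 in VHL+ and -0.18 in VHL- cells, beside -0.03 and 0.03 over all genes tested, and 0.06 between the lines under DMSO beside 0.00.

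The other transcription factors of the nephron were taken as a list of 40, of which 28 were tested. With JQ1 in VHL+ cells 4 rose and 6 fell (35.7% called, against 31.8% of all genes; list median -0.31), and the smallest p-values were for the falls of TFCP2L1, a factor of the distal nephron and collecting duct (1.94 ± 1.15 to 0.201 ± 0.154 CPM), MEIS2, ESRRG and IRX3. In VHL- cells 3 were called higher and 9 lower (42.9%, against 32.1% of all genes). ESRRG, 1 of the 3, had 0 counts in each DMSO library and at most 3 under JQ1, so no rise is read from it and 2 rose. The list median was -0.22 with ESRRG at its fitted value. It was -0.28 with ESRRG at a lower bound of -0.80, which takes 3 counts per DMSO library and is no measured fall. The smallest p-values were for the falls of BNC2, HES1, MEIS2 and HOXB7. Between the lines under DMSO 4 were higher and 12 lower in VHL- cells (57.1%, against 30.7% of all genes; median -0.36, the same with ESRRG at its floor), and under JQ1 again 4 and 12 (57.1%, against 40.9%; median -0.42). POU3F3, a factor of the loop of Henle and distal tubule, stood at 33.3 ± 8.40 CPM in VHL+ DMSO and 2.05 ± 0.368 in VHL- DMSO, 16.2-fold lower (adjusted p = 2.17e-10). ESRRG, the orphan receptor, stood at 4.67 ± 0.735 CPM in VHL+ DMSO and at 0 in every VHL- DMSO library, so it was at least 44.8-fold higher in VHL+ cells, taking 3 counts per library as the floor. In the opposite direction, WT1, the regulator of nephron progenitors and podocytes, stood at 0.0962 ± 0.107 CPM in VHL+ DMSO and 3.25 ± 0.864 in VHL- DMSO (adjusted p = 1.54e-06), and FOXC1 was 3.07-fold higher in VHL- cells (adjusted p = 3.2e-07). WT1 held 6, 1 and 1 counts in VHL+ DMSO and passed the filter through the VHL- groups alone. Its passing and its being higher there are thus not separate facts, and the same holds for ESRRG in the VHL+ groups.

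The partners and reported targets of PAX2 and PAX8 were a list of 18, of which 8 were tested. With so few genes the counts say little about the list. With JQ1 in VHL+ cells CDH16, CDH6, PAXIP1 and CP fell and 0 rose (50% called, against 31.8% of all genes; list median -0.91). CDH16, the kidney-specific cadherin, fell 3.30-fold, from 145 ± 41.1 to 43.8 ± 4.40 CPM (adjusted p = 7.78e-06). In VHL- cells CP, CDH16 and WT1 fell and RET, under 1 CPM in every group mean, rose (50%, against 32.1%; median -0.36). CP, which encodes ceruloplasmin, fell 5.73-fold, from 80.8 ± 5.20 to 14.0 ± 3.04 CPM (adjusted p = 4.18e-08). Between the lines under DMSO CDH16 was 12.2-fold and CDH6 5.78-fold lower in VHL- cells (adjusted p = 1.05e-09 and 1.08e-08), while WT1 and CP were higher (50%, against 30.7%; median 0.10). Under JQ1 3 were higher and 3 lower (75%, against 40.9%; median 0.46). NKX2-1, the thyroid and lung partner of PAX8, had 0 counts in all 12 libraries.

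The proximal tubule genes linked to HNF4A were a list of 36, of which 16 were tested. With JQ1 in VHL+ cells 8 fell and 1 rose (56.2% called, against 31.8% of all genes; list median -0.88). In VHL- cells 4 fell and 1 rose, a share near that of all genes (31.2% against 32.1%; median -0.26). SLC2A2, a glucose transporter, fell 13.7-fold in VHL+ cells, from 5.00 ± 0.169 to 0.367 ± 0.112 CPM (adjusted p = 4.89e-07). It was 0.631 ± 0.181 and 0.693 ± 0.139 CPM in VHL- DMSO and JQ1. The scaffold PDZK1 fell 2.95-fold in VHL+ and 3.68-fold in VHL- cells (adjusted p = 4.43e-05 and 7.74e-06), and SLC34A1, the phosphate transporter, 6.70-fold and 7.44-fold (adjusted p = 5.04e-05 and 0.000155). Under JQ1 SLC34A1 held 10, 8 and 6 counts in VHL+ and 5, 0 and 5 in VHL- cells, near the floor, so the size of its falls is not well set. ACSM2A, an acyl-CoA synthetase, fell in VHL+ cells from 6.55 ± 6.31 to 0.209 ± 0.127 CPM (adjusted p = 0.000218), with a wide spread under DMSO. ACSM2A passed the filter through VHL+ DMSO alone, so passing and being higher there are not separate facts. KHK, the fructose kinase, was the 1 gene that rose, in both lines (1.58-fold and 2.13-fold). Between the lines under DMSO 8 were lower and 2 higher in VHL- cells (62.5%, against 30.7%; median -0.92), with the cation transporter SLC22A2 at 26.7 ± 4.92 against 0.654 ± 0.180 CPM (adjusted p = 2.17e-11). Under JQ1 3 were lower and 3 higher (37.5%, against 40.9%; median -0.51).

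**Figure D4:**
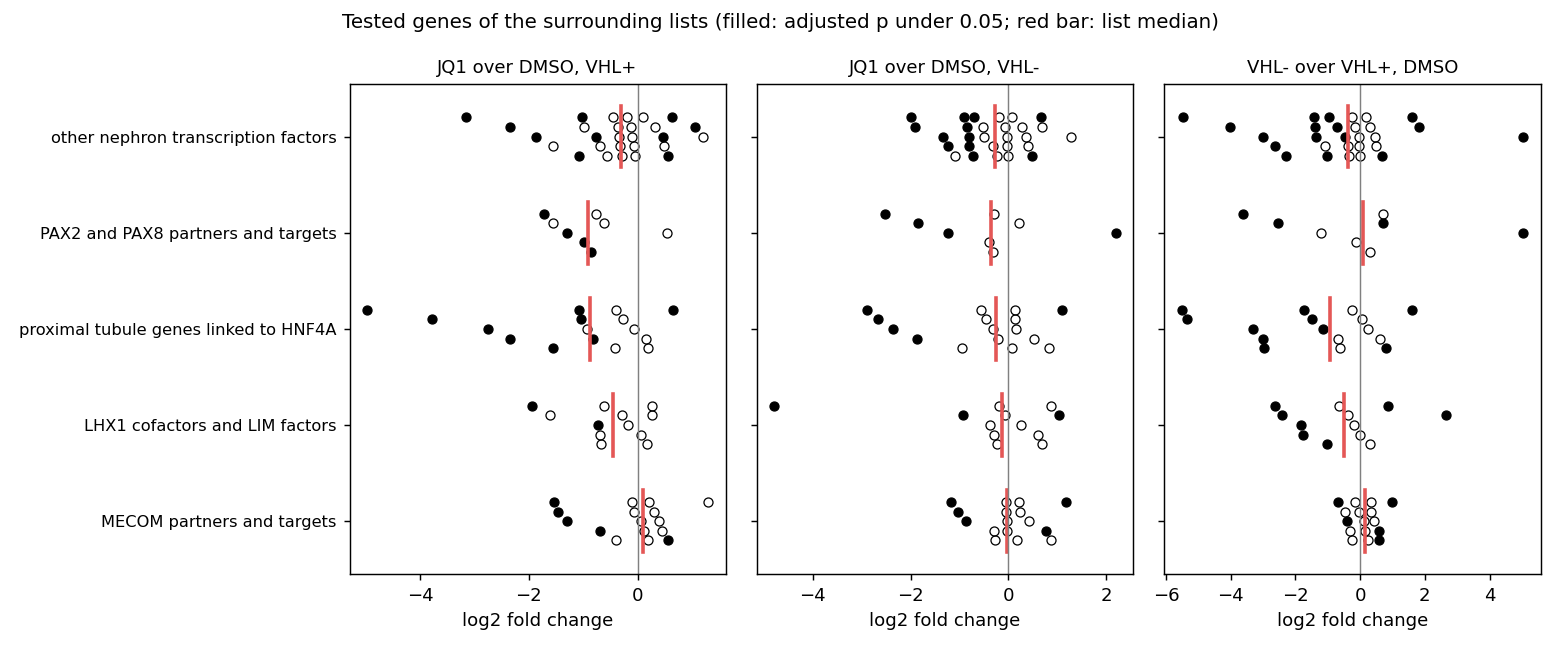
Log2 fold changes of the tested genes in 5 lists around the factors, with JQ1 in VHL+, with JQ1 in VHL- and between the lines under DMSO; filled points passed at an adjusted p under 0.05, and red bars are list medians. ESRRG, at 0 in VHL- DMSO, is drawn at its floor of -5.49 between the lines and is left out with JQ1 in VHL- cells. There the bar takes ESRRG at a lower bound of -0.80, which is no measured fall. The medians of the first 4 lists lie left of 0 in both JQ1 panels, from -0.91 to -0.13, and those of the MECOM list lie within 0.15 of 0 in all 3 panels.

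The cofactors of LHX1 and other LIM factors were a list of 18, of which 12 were tested. In VHL+ cells SSBP4 and LHX2 fell with JQ1 and 0 rose (16.7% called, against 31.8% of all genes; median -0.46), and in VHL- cells SSBP4 and LMO1 fell and SSBP3 rose (25%, against 32.1%; median -0.13). SSBP4, of the family that stabilises LIM complexes, went from 21.7 ± 3.79 to 13.1 ± 0.203 CPM in VHL+ and from 39.3 ± 2.42 to 20.6 ± 2.29 CPM in VHL- cells (adjusted p = 0.00106 and 0.000102). Between the lines under DMSO 2 were higher and 5 lower in VHL- cells (58.3%, against 30.7%; median -0.51), and under JQ1 2 and 3 (41.7%, against 40.9%; median -0.48). LDB1, the scaffold on which LIM factors assemble, stood at 95.6 ± 16.8 CPM in VHL+ DMSO and 108 ± 4.61 in VHL+ JQ1. In VHL- cells it stood at 94.5 ± 18.6 and 79.9 ± 6.90 CPM, with no called JQ1 effect.

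All 16 partners and targets of MECOM on its list were tested. The histone methyltransferases SUV39H1 and EHMT2 fell with JQ1 in both lines, SUV39H1 by 2.76-fold and 2.25-fold (adjusted p = 0.000245 and 0.000869) and EHMT2 by 1.62-fold and 2.03-fold (0.000278 and 8.61e-06). In all 1 rose and 4 fell in VHL+ cells (31.2% called, against 31.8% of all genes; median 0.09) and 2 rose and 3 fell in VHL- cells (31.2%, against 32.1%; median -0.04), so the list was called about as often as any genes. Between the lines 3 were higher and 2 lower under DMSO (31.2%, against 30.7%; median 0.15), and 3 and 1 under JQ1 (25%, against 40.9%; median 0.09). GATA2, a target of MECOM in blood stem cells, fell 2.92-fold with JQ1 in VHL+ and 1.83-fold in VHL- cells (adjusted p = 0.00113 and 0.0323).

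Among 13 paralogs of the factors 4 were tested. Beside HNF4G and EMX1, SLC2A4RG stood at 89.3 to 123 CPM and ZNF704 at 0.366 to 0.701 CPM in the group means. The other PAX genes on the list (PAX1, PAX3, PAX4, PAX5, PAX6, PAX7 and PAX9) did not pass the filter, with at most 0.329 CPM in any library (PAX6), and LHX5 and PRDM16 reached 0.115 and 0.511 CPM. HNF4A-AS1 and MECOM-AS1 did not pass either, with at most 0.117 and 0.0777 CPM.

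Over the 12 libraries, the genes whose log2 CPM was most like that of each factor were found by Pearson's r among 12213 tested genes, as a description only, since the libraries share 4 groups that differ in many genes. For ZNF395 these were DEPP1 (r = 0.995), PPP1R37 (0.995) and ADAMTS16 (0.991). For EMX2 they were ADGRL2 (0.990), EPHA7 (0.989) and ENTREP2 (0.987). For PAX8 they were LRCH3 (0.967), NHEJ1 (0.961) and MAP2K7 (0.955), and for PAX2 RNF44 (0.974), TAF6 (0.961) and ACSF3 (0.940). For LHX1 they were LRRN4 (0.974), SLC35C1 (0.968) and SLC19A1 (0.967). MECOM was closest to ITGB7 (0.938), GMPR2 (0.936) and UBL4A (0.935), and HNF4A, at its trace level, to GRB10 (0.946), ECH1 (0.914) and SF3A1 (0.897).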

How the data were processed

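RNA-seq counts per gene were deposited for 12 libraries. Per the submitters' processing notes, GRCh38 was the build, and featureCounts, Subread 2.0.3, STAR 2.7.8 and DESeq2 1.30.1 were used, in an order and with a strand setting not given in the sources used here. For each line the authors' deposited table holds the log2 fold change with JQ1 and its standard error. The authors' deposited p-values, a test statistic (as a score, the fold change divided by its error) and a deposited mean of size-factor-scaled counts (another, other, kind of value) were not used beyond the adjusted p-values printed.

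Counts were fitted in R 4.3.3 with edgeR 4.0.16 (TMM scaling, filter on low counts by group, quasi-likelihood test with 1 mean per group over all 12 libraries), which tested 20714 genes. Adjusted p-values are Benjamini-Hochberg over all of these, with a threshold of 0.05. The fit was tested on simulated data, in which only genes with higher mean counts than HNF4A and EMX2 were changed. That test thus does not cover changes of genes as low as these. CPM use TMM-scaled sizes and RPKM the exon length of GENCODE release 29; log2 CPM used a prior count of 2 and the floor is 3 counts per library. DESeq2 1.42.0, other scalings and filters, a replicate block and left-out libraries were alternatives.

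The 7 factors and all lists were chosen with earlier results of these data known, and the motifs after the sequences were read. Named genes are the 7 factors, the checks VHL, MYC and HEXIM1, paralogs and antisense partners, and up to 4 called members per list with the smallest p, plus the 3 genes most like each factor of those averaging 1 log2 CPM or more; RET, KHK, GATA2, LDB1, NKX2-1, PDGFRB, PODXL, SLC12A3, ESAM, CSF1R, KRT8 and KRT18 were added after their values were seen. The labels do not say that replicates were separate cultures, so p-values measure the spread between these libraries, which may be technical. No spike-in is named, so levels are relative to all RNA counted.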

Additional observations from a re-analysis of the deposited data

Results flagged for a closer look

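No factor of the 7 was among the results below, which are genes of the lists and checks whose JQ1 effect differed between the lines in the edgeR test of the difference itself. Values are the log2 effect in VHL- cells minus that in VHL+ cells. Among the partners of the PAX factors the difference was -1.672 for CP (adjusted p = 0.00133) and 1.004 for CDH6 (adjusted p = 0.0481). For the proximal tubule gene SLC2A2 it was 3.898 (adjusted p = 0.000441), and for the LHX1 cofactor SSBP3 1.652 (adjusted p = 0.0497). Among genes induced by hypoxia it was -3.729 for CA9 (adjusted p = 0.0179), 1.505 for VEGFA (adjusted p = 0.0163), -1.452 for NDRG1 (adjusted p = 0.0202) and 1.574 for PFKFB3 (adjusted p = 0.000872). For VHL itself it was -1.286 (adjusted p = 0.00161). In VHL+ cells CA9 held only 3, 3 and 5 counts under DMSO and 26, 16 and 0 under JQ1. The size of its difference is thus not well set, and 38.5% of its exon bases are shared with ARHGEF39.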

How the results depend on the processing

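Across all alternatives run, PAX8 and LHX1 in VHL+ cells, LHX1 in VHL- cells, and EMX2 and ZNF395 between the lines kept their direction and their call. The number of genes whose JQ1 effect differed between the lines was 250, and became 1336 with no filter, 1283 with DESeq2 and 25 with replicate 3 of both JQ1 groups left out; the cause was not tested. With those libraries out, genes called were 4160 (JQ1 in VHL+), 3957 (JQ1 in VHL-) and 4814 (between the lines under JQ1), and 1 factor was called with JQ1 in VHL- cells, with fewer samples in the fit. With 1 library left out at a time, genes called ran from 4710 to 7355, 4672 to 8106, 5008 to 7124, 6395 to 9644 and 43 to 3510 in the 5 comparisons (JQ1 in VHL+, JQ1 in VHL-, the lines under DMSO, the lines under JQ1, difference of effects), and factors called from 2 to 3, 1 to 3, 2 to 5, 2 to 3 and 0 to 0.

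Values that changed sign were all uncalled. The ZNF395 difference of effects was -0.02397 with no filter, -0.003671 with DESeq2 and -0.02124 without replicate 3 of both JQ1 groups. Without replicate 1 of both DMSO groups HNF4A with JQ1 in VHL- cells was 1.125, and PAX8 and LHX1 between the lines under DMSO were -0.1738 and -0.446. With 1 library out, PAX8 between the lines under DMSO ran from -0.0568 to 0.3455 and LHX1 from -0.3396 to 0.5208. EMX2 with JQ1 in VHL+ then ran from -0.3234 to 0.07059, and HNF4A with JQ1 in VHL- from -0.632 to 1.138. For HNF4A between the lines under JQ1 the fit gave -0.09368 to 1.194. Both groups are at the floor there, so this range records a change of sign and no fold is read from it. The difference of effects, again with 1 library out, ran from -0.098 to 0.4264 for PAX2 and from -0.04907 to 0.1152 for ZNF395.

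Whether replicate numbers pair the samples was not clear, and the main fit did not pair them. In their deviations from the group means, same-numbered libraries correlated from 0.06 to 0.44 with JQ1 in VHL- cells. Between the lines under JQ1 they correlated from 0.06 to 0.43. The range was -0.04 to 0.10 with JQ1 in VHL+ cells and -0.42 to -0.10 between the lines under DMSO. With the replicate block 6423, 6612, 6191, 8406 and 272 genes and 3, 3, 5, 2 and 0 factors were called, and HNF4A with JQ1 in VHL- cells was 0.0009511.

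Scaling by total counts alone moved the median of all genes to -0.1416 (JQ1 in VHL+), 0.1905 (the lines under JQ1) and 0.1077 (difference of effects), and PAX2 with JQ1 in VHL+ cells was then called. Depth limits HNF4A in every group but VHL+ DMSO, and EMX2 in VHL- cells, where libraries held at most 7 counts.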
